A study of Mus musculus with 18 samples.

Results

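The response of RAW264.7 cells to interferon-gamma alone was described across genes, in cells that carried an inducible Cited1 construct but received no inducer. RAW264.7 is a mouse macrophage-like cell line. The members are the genes that the authors' deposited table of Cuffdiff comparisons lists for construct cells given interferon-gamma against construct cells left untreated. They number 2748 of the 5455 genes listed in any comparison between the study's groups, and they come from 3358 table entries, most of them single transcripts. Both groups carried the lentiviral construct pINDUCER20-mCITED1, and neither received doxycycline. One group of 3 samples was untreated and the other group of 3 received recombinant murine interferon-gamma at 200 U/mL. The labels give no time of treatment for these samples and state neither whether replicate samples are separate cultures nor whether the construct cells were 1 clone. The study asked how CITED1, a transcriptional co-regulator, shapes expression of genes stimulated by interferon-gamma, and the comparison described here is the one without the inducer. Cited1 itself was called higher in it, as given below.

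Interferon-gamma is a cytokine released by T cells and natural killer cells, and it is the classical activator of macrophages. Its receptor is bound to the kinases JAK1 and JAK2, which phosphorylate STAT proteins, and STAT dimers then bind GAS elements in DNA. A second layer of transcription factors, the interferon regulatory factors, acts at ISRE elements, and SOCS proteins feed back on the kinases. In macrophages this programme is known for antigen presentation, killing of intracellular microbes and growth arrest.

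Each entry of the authors' deposited table has 1 fold change, 1 q-value and 1 FPKM summed over both groups. FPKM are fragment numbers scaled to transcript length and library size, so they can be compared between genes. The level in each group was rebuilt from the fold and the sum, and every FPKM below is such a rebuilt group value. No value per sample was at hand, so the spread between replicates, the overlap of groups and the depth of each library are unknown, and no SD can be given. A gene is called higher or lower where all its entries in the authors' deposited table go that way, each with at least a 2-fold change and a q of 0.05 or less. As the table lists only such calls, a gene without an entry is not shown to be unchanged. A log2 ratio below is always the level with interferon-gamma over the untreated level.

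As a check of the cell type, 14 macrophage marker genes were looked up, and 8 of them had an entry in some comparison. Among these, the leukocyte phosphatase gene Ptprc went from 50.8 to 111 FPKM and the high-affinity Fc receptor gene Fcgr1 from 14.1 to 87.5. The myeloid transcription factor gene Cebpa went from 17.5 to 5.48 FPKM. None of 27 markers of other cell types had an entry, which leaves their levels unknown. Cited1 went from 0.703 to 11.5 FPKM without inducer. Reads from the construct and from the cell's own Cited1 cannot be told apart in these values, and the part of each was not tested.

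Promoters of the strongest responders are shown first because the elements named above can be read in them. Of the 15 genes with the largest rises, 11 were matched by symbol to RefSeq promoters (GRCm38.p6, 250 bases before to 50 after the gene's start), with 13 promoters in all. The 5 genes printed here, in order of fold, held an ISRE-type or GAS motif. The sequences run 5′ to 3′ on the gene's strand, and capitals mark ISRE-type motifs (GAAA, any 2 bases, GAAA) and GAS motifs (TTCNNNGAA), each searched on both strands. They lie at chr3:142496684-142496983 (plus strand, Gbp5), chr16:10785487-10785786 (minus strand, Socs1), chr1:172590519-172590818 (minus strand, Slamf8), chr14:59297473-59297772 (minus strand, Phf11a) and chr3:142530086-142530385 (plus strand, Gbp7).
Gbp5: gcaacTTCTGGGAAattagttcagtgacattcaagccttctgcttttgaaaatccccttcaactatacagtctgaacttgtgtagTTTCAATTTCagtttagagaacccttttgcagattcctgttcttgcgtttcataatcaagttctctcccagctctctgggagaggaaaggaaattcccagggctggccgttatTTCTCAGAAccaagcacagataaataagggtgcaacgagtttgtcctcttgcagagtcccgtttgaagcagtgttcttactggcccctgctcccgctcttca
Socs1: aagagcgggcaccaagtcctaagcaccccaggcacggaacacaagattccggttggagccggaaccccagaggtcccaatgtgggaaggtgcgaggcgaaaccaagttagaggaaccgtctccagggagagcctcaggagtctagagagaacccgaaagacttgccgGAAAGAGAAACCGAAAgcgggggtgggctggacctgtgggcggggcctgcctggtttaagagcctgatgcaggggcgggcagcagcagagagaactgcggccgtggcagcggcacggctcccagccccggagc
Slamf8: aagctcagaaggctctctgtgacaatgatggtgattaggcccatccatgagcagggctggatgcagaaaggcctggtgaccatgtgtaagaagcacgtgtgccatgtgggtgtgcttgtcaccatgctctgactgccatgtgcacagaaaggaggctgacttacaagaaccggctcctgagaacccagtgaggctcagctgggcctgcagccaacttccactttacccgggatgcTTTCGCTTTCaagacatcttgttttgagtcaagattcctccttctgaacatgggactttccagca
Phf11a: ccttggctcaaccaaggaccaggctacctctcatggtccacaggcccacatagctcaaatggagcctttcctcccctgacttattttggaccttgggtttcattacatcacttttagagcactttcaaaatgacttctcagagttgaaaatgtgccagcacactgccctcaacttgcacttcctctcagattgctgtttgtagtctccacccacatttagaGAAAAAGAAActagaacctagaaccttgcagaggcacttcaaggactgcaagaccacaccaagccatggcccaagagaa
Gbp7: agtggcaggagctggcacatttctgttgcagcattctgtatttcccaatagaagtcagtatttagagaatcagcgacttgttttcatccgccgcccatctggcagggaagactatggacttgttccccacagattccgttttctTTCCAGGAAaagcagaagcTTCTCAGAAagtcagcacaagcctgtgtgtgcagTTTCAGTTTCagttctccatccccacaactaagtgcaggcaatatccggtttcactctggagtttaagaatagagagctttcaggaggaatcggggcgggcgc

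In Gbp5 the ISRE-type motif begins 165 bases before the start and the GAS motifs 245 and 52 bases before it. The Socs1 promoter holds 2 overlapping ISRE-type motifs, which begin 83 and 77 bases before the start. In Gbp7 an ISRE-type motif lies 53 bases before the start, behind GAS motifs at 106 and 87 bases. Slamf8 and Phf11a hold 1 ISRE-type motif each, at 15 and 29 bases. No ISRE-type or GAS motif was in the windows of Clec9a, Ccl22, Upp1, Ass1, Xcr1 and Ifi209. Gbp10, Batf2, Cfb and Mx1 were not matched. A match of letters is a description of the window and shows neither binding nor cause.

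With interferon-gamma, the authors' deposited table lists 1404 genes as higher and 1334 as lower, and 10 had entries in both directions. These are 25.7% and 24.5% of the 5455 genes listed in any comparison. By number the response was nearly balanced, with 51.3% of called genes higher. When levels were rescaled so that the median log2 ratio over 3846 entries was 0, a shift of 0.65, the share of higher genes was 33.7%. Only 4.13% of those entries lay within 0.5 of 0 before the shift, because the table lists mainly called entries, so this median is a poor reference. How far the balance depends on the authors' scaling could not be settled from the table.

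As deposited, the 2 directions differed more in their share of large changes than in number. These sizes rest on the authors' scaling too, since the rescaling shift of 0.65 would make each rise smaller and each fall larger. Among higher genes the median fold was 2.90 in the authors' deposited table, and 193 genes (13.7%) rose at least 8-fold. Among lower genes the median fold was 2.71, and 56 genes (4.20%) fell at least 8-fold. By the entry printed for each gene, there were 21 rises of at least 100-fold and 1 such fall in the authors' deposited table. The higher genes started from a median of 4.79 FPKM and reached 17.5, while the lower genes went from 10.1 to 3.39. Summed over entries, higher entries gained 50029 FPKM and lower entries fell by 19939 FPKM. In 44 genes the level went from under 1 FPKM to at least 10, and in 8 genes it went the opposite way, from at least 10 to under 1.

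**Figure D1:**
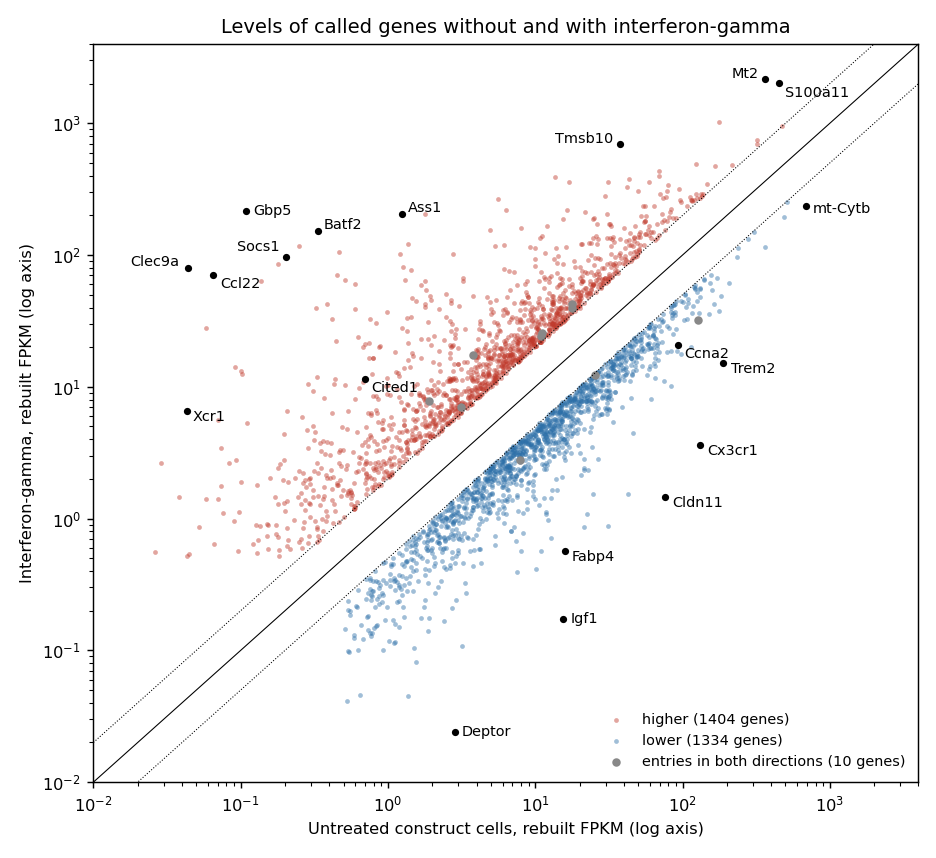
Rebuilt FPKM of each called gene in untreated construct cells (x axis, log scale) and with interferon-gamma (y axis, log scale); red points are higher genes, blue points lower genes, grey points genes with entries in both directions, the solid line marks equal levels and the dotted lines 2-fold. The upper left holds genes such as Gbp5 and Clec9a that began below 1 FPKM, and no lower gene lies as far from the diagonal as Gbp5, which rose 2006-fold in the authors' deposited table.

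Gbp5 rose most: it encodes a guanylate-binding GTPase that acts against intracellular microbes, and it went from 0.108 to 217 FPKM. Clec9a, a lectin receptor for dead cells known from cross-presenting dendritic cells, went from 0.0437 to 80.4 FPKM. Ccl22, a chemokine for CCR4-bearing T cells, went from 0.0648 to 71.2 FPKM, and the GTPase gene Gbp10 from 0.0577 to 28.1. All these started near the lower end of the measured range, where a small difference in the untreated level moves the fold greatly. In the authors' deposited table q was 0.0185 for Clec9a, 0.0110 for Ccl22 and 0.0322 for Gbp10, against the smallest listed value of 3.9e-04 for Gbp5. That smallest value was shared by 70.6% of the entries of the comparison in the authors' deposited table.

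The next largest rises covered enzymes, a feedback inhibitor and surface receptors. Upp1, uridine phosphorylase, went from 0.180 to 85.5 FPKM. Socs1, which blocks JAK kinases, went from 0.203 to 95.9 FPKM. Slamf8, a receptor of the SLAM family, rose from 0.247 to 117 FPKM and Batf2, an AP-1 family transcription factor, from 0.334 to 153. Cfb, complement factor B, rose from 0.466 to 105 FPKM. Ass1, which makes argininosuccinate in arginine resynthesis, rose from 1.25 to 207 FPKM. Phf11a, Xcr1, Mx1, Ifi209 and Gbp7 complete the 15 largest rises, with folds of at least 100 in the authors' deposited table.

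Gains measured in FPKM rather than as a ratio named other genes. Mt2, a metal-binding metallothionein, went from 365 to 2160 FPKM and S100a11, a calcium-binding protein, from 449 to 2013. Tspo, a cholesterol-binding protein of the outer mitochondrial membrane, went from 178 to 1024 FPKM. Tmsb10, which sequesters actin monomers, went from 37.4 to 696 FPKM. Lgals1, Cd52 and Crip1 were also among the 10 largest gains, and all 3 changes fell under 2-fold after the rescaling. Prdx5, a peroxiredoxin, went from 69.5 to 435 FPKM and Ifi202b, a DNA-binding protein of the p200 family, from 13.6 to 389.

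On the falling side, Deptor, an inhibitor of mTOR, went from 2.84 to 0.0239 FPKM, a fall of 119-fold in the authors' deposited table. That end level lies near the lower end of the measured range, where a small difference moves the fold greatly. Igf1, an insulin-like growth factor, went from 15.5 to 0.172 FPKM. The q of that entry was 0.0348 in the authors' deposited table, while 2 further entries of Igf1, which fell 156-fold and 18.8-fold there, carried the smallest q. Cldn11, a tight junction claudin, went from 76.2 to 1.47 FPKM. Cx3cr1, the fractalkine receptor, went from 131 to 3.60 FPKM and so combined a high start with a large fall. Cd33, a sialic acid-binding receptor, went from 31.3 to 0.871 FPKM. Fabp4, a fatty acid binding protein, went from 15.8 to 0.568 FPKM, and Igfbp4, which binds insulin-like growth factors, from 42.9 to 1.55. S1pr1, a sphingosine phosphate receptor, went from 22.6 to 1.07 FPKM. Ctsk, Zfp658, Tmem158, Cd300e, Gas6, Il13ra2 and Htr1b complete the 15 largest falls. Zfp658, Il13ra2 and Ctsk ended at 0.0447, 0.0820 and 0.107 FPKM, so their folds and the order of the falls have the same limit as Deptor.

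The largest losses in FPKM included mt-Cytb, a mitochondrially encoded subunit of complex III, from 688 to 237, and mt-Nd2, a complex I subunit, from 510 to 252. Histone variant genes were among them, with H2az1 going from 492 to 195 FPKM and H2ax from 177 to 37.5. Fabp5, a fatty acid binding protein, went from 362 to 115 FPKM. Trem2, a lipid-sensing receptor of macrophages, went from 190 to 15.2 FPKM, and Gusb, the lysosomal beta-glucuronidase, from 207 to 61.6. Dbi, Ran and the splicing factor gene Srsf2 were the other large losses.

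Genes were then read by role, using 37 lists with 1388 distinct genes. For comparison, the median log2 ratio was 1.54 over all higher genes, −1.44 over all lower genes and 1.01 over all called genes, the last of which sits at the edge of the unlisted range between a 2-fold fall and a 2-fold rise. Each list is given with its size and with the number of its members listed in any comparison, since the shares of 25.7% higher and 24.5% lower are over such listed genes. Counts of list members are calls in the authors' deposited table throughout, and a list's count shows no more than its own members did. Members without an entry in this comparison are not analysed here and are not shown to be unchanged. Counts after the rescaling use the poor reference described above, which can reduce the number of higher members but not that of lower members.

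**Figure D2:**
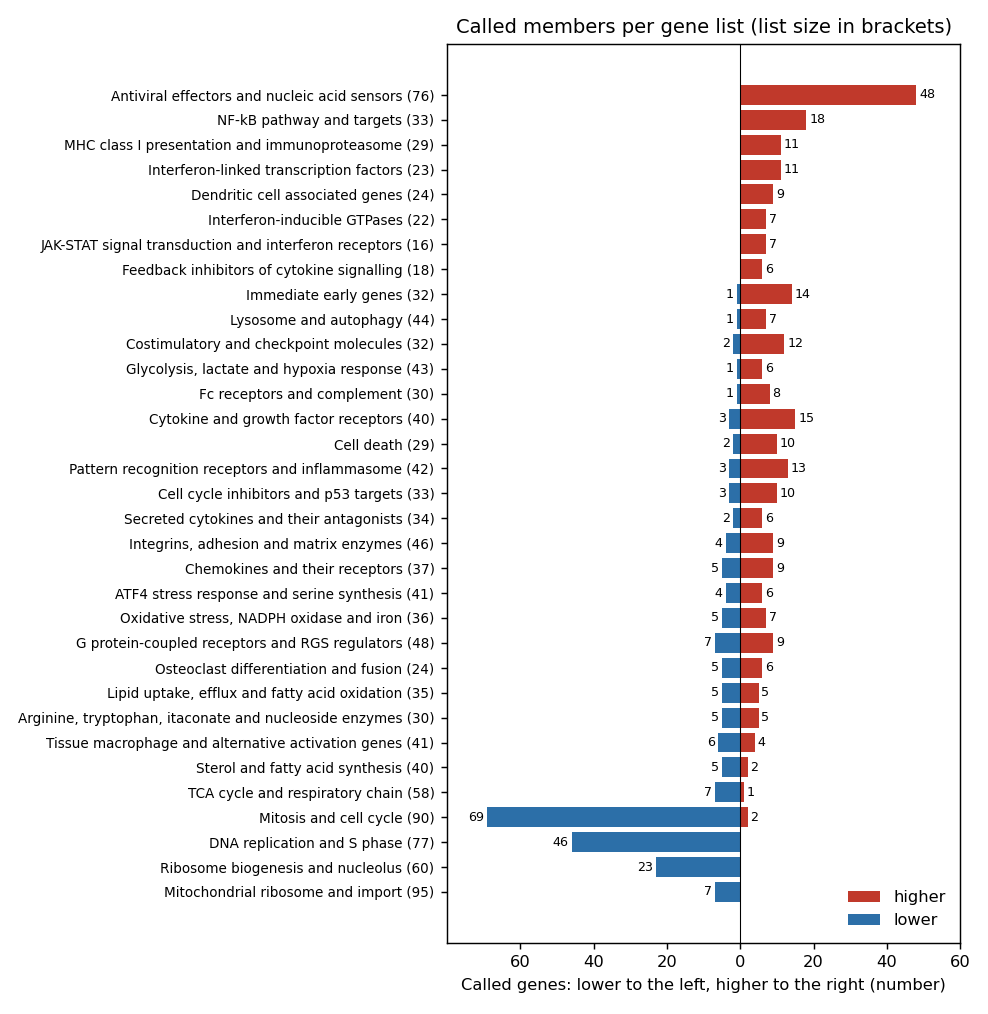
Number of members of each gene list called lower (blue, to the left) and higher (red, to the right) with interferon-gamma in the authors' deposited table, with the list's size in brackets and lists with fewer than 5 called members left out. Antiviral effectors have 48 members higher and none lower, and the mitosis and cell cycle list has 69 lower and 2 higher.

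In the list of JAK-STAT components and interferon receptors (16 genes, 7 listed), 7 were higher and none lower, or 5 higher after the rescaling, with a median log2 ratio of 2.38. Stat2, which pairs with IRF9 in the ISGF3 complex, rose from 10.0 to 114 FPKM. Jak2, a kinase bound to the interferon-gamma receptor, rose from 6.69 to 54.5 FPKM. Stat3 rose from 14.1 to 73.6 FPKM and Irf9 from 3.50 to 13. The kinase genes Tyk2 (12.6 to 35.2 FPKM) and Jak1 (33.1 to 67.8 FPKM) changed least, and both fell below 2-fold after the rescaling.

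Of 18 feedback inhibitors, 9 of them listed, 6 were called and these were higher, with a median log2 ratio of 2.51. Socs1 led them, as given above, and Socs3, a second SOCS family inhibitor, rose from 3.78 to 48.8 FPKM. Usp18, which removes ISG15 from proteins and dampens type I interferon signalling, rose from 24.9 to 191 FPKM. The MAP kinase phosphatase gene Dusp1 rose from 4.28 to 18.1 FPKM, and Pias1, an inhibitor of STAT binding to DNA, from 1.76 to 5.93.

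Among 23 interferon-linked transcription factors and co-regulators, 12 of them listed, 11 were higher and none lower. Behind Batf2, the chromatin reader genes of the Sp100 family moved together: Sp140 rose from 6.11 to 118 FPKM, Sp110 from 9.97 to 81.9 and Sp100 from 5.01 to 38.9. These 3 genes are neighbours in the RefSeq gene order, and related copies nearby make the split of reads between them uncertain. Nlrc5, the transactivator of MHC class I genes, rose from 2.91 to 27.5 FPKM. Irf7, a factor for type I interferon genes, rose from 24.8 to 187 FPKM. The more modest rises were those of Irf2 (21 to 63.2 FPKM) and Irf5 (49.9 to 137 FPKM), both under 2-fold after the rescaling.

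The interferon-inducible GTPases had the highest median of all lists, a log2 ratio of 7.0 over 7 higher genes of 22, 8 of them listed. After Gbp5 and Gbp10 came Mx1, which blocks viral nucleocapsids, from 0.0919 to 14.1 FPKM. Gbp7 rose from 0.509 to 65.0 FPKM and Gbp3 from 0.598 to 60.8. Gvin1, a very large GTPase, rose from 0.0701 to 1.40 FPKM, and Mx2 from 1.17 to 12.7. All of the called GTPases but Mx2 started below 1 FPKM, where a small difference in the untreated level moves the fold greatly. The median of 7.0 rests on these low starts. Guanylate-binding proteins resemble each other closely, so reads can be shared between these genes.

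Antiviral effectors and nucleic acid sensors were the broadest rising group, with 48 of 76 members higher (65 listed), none lower and a median log2 ratio of 2.60. After the rescaling 34 were higher. Zbp1, a sensor of Z-form nucleic acids, rose from 2.77 to 102 FPKM. Isg15, a ubiquitin-like modifier, rose from 17.1 to 358 FPKM, and Cmpk2, a mitochondrial nucleotide kinase, from 8.01 to 161. Ifit1, which binds viral RNA caps, rose from 1.68 to 59.6 FPKM, Ifit3 from 1.81 to 54.4 and Oasl2 from 1.79 to 42.4. Ifi204, a DNA sensor of the p200 family, rose from 4.92 to 155 FPKM and Ifi211 from 1.79 to 64.1. The nuclease gene Isg20 rose from 2.46 to 50.6 FPKM. A further p200 gene, Ifi209, had the largest ratio of the list, from 0.101 to 13.1 FPKM.

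In antigen presentation, class I and class II differed in their counts. Of 29 genes for MHC class I presentation and the immunoproteasome, 11 were listed, 11 were higher and none lower, with a median log2 ratio of 2.08. Tapbpl, a peptide editor, rose from 2.66 to 45.5 FPKM. The proteasome activator genes Psme1 (79.2 to 339 FPKM) and Psme2 (95.4 to 320 FPKM) were among the most abundant members. Psmb10, a catalytic subunit of the immunoproteasome, rose from 32.6 to 118 FPKM. The non-classical genes H2-Q4 (55.9 to 236 FPKM) and H2-Q6 (22.8 to 91.4 FPKM) rose as well, although reads of these near-identical genes cannot be placed with certainty. Of 18 class II genes, 8 of them listed, a single one was called, H2-DMb2, a chain of the peptide exchange factor, from 0.287 to 10.5 FPKM. The other 17 class II genes have no entry in this comparison, and whether the 2 classes differed was not tested.

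Costimulatory and checkpoint genes were mostly higher, 12 against 2 lower out of 32 (19 listed), and 7 against 2 lower after the rescaling. Cd274, which encodes PD-L1, rose from 1.78 to 203 FPKM, and Cd40, the receptor for T cell help, from 1.26 to 81.3. Cd47, a signal against phagocytosis, rose from 20.2 to 80.8 FPKM. Nectin2, a ligand of lymphocyte receptors, rose from 2.81 to 14.8 FPKM. Cd276 fell from 12 to 4.46 FPKM and Tnfsf14 from 0.872 to 0.298.

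Chemokines and their receptors moved in both directions, 9 higher and 5 lower of 37, of which 22 were listed. The 5 lower genes are 22.7% of the listed members, near the 24.5% lower of all listed genes. Ccl5, which attracts T cells, rose from 6.42 to 36.8 FPKM. Cxcl16, a membrane-bound ligand, rose from 23 to 124 FPKM and Ccl2, a monocyte attractant, from 11 to 41.2. The receptor genes split: Xcr1 rose from 0.0430 to 6.61 FPKM and Ccr1 from 1.14 to 13. In contrast Cx3cr1, Cxcr4 (8.02 to 0.564 FPKM) and Cxcr3 (9.10 to 1.88 FPKM) fell. The chemokine gene Cxcl14 also fell, from 11.9 to 1.13 FPKM.

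Cytokines and receptors followed with 6 of 34 secreted factors higher and 2 lower (18 listed), and 15 of 40 receptors higher and 3 lower (23 listed). After the rescaling 4 secreted factors and 10 receptors were higher. Tnf rose from 15.4 to 189 FPKM, Il15 from 1.67 to 23.1 and Il1rn, the interleukin-1 receptor antagonist, from 30.9 to 205. Lif rose from 0.0286 to 2.66 FPKM, an entry that did not keep a q of 0.01 or less. The other falling factor beside Igf1 was Tnfsf13, which encodes APRIL, from 11.8 to 1.08 FPKM. Among receptors, Il12rb1, a chain of the interleukin-12 receptor, rose from 0.323 to 39.6 FPKM. Il4ra rose from 0.331 to 12 FPKM, Il13ra1 from 20.8 to 120 and Il10ra from 9.11 to 43.5. These are chains of the interleukin-4, interleukin-13 and interleukin-10 receptors. Il2rg, the common gamma chain, rose from 52.6 to 199 FPKM, and the death receptor gene Fas from 1.46 to 47.6. Csf3r, the receptor for granulocyte colony-stimulating factor, fell from 3.75 to 1.23 FPKM.

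Fc receptors and complement had 8 members higher and 1 lower of 30, of which 20 were listed. The activating receptor genes Fcgr4 (12 to 166 FPKM), Fcgr1 (14.1 to 87.5 FPKM) and Fcgr3 (39.9 to 159 FPKM) all rose. The inhibitory receptor gene Fcgr2b had a transcript that rose from 3.75 to 17.5 FPKM and another that fell from 11.2 to 1.96. Of the complement components, C3 rose from 5.26 to 17.7 FPKM and C1ra from 3.76 to 13. The integrin gene Itgax, a complement receptor chain, rose from 2.04 to 24.2 FPKM.

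Receptors for microbial products and inflammasome genes numbered 13 higher, or 9 after the rescaling, and 3 lower of 42, of which 25 were listed. Tlr9, a sensor of DNA, rose from 5.44 to 45.9 FPKM. Casp4, which encodes the lipopolysaccharide-sensing caspase, rose from 5.03 to 35.6 FPKM, Casp1 from 23.8 to 124 and Nlrp3, an inflammasome sensor, from 11.5 to 56.3. Gsdmd, the pore former of pyroptosis, rose from 34.7 to 86.8 FPKM, which was under 2-fold after the rescaling. In the opposite direction went Tlr2, a receptor for bacterial lipoproteins, from 64.1 to 15.3 FPKM, and Tlr7, a sensor of single-stranded RNA, from 41.3 to 15.9.

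Genes of the NF-kB pathway and its targets had 18 of 33 members higher (25 listed), or 13 after the rescaling, and none lower, with a median log2 ratio of 2.12. Nfkbiz, a nuclear IkB protein, rose from 1.28 to 13.9 FPKM. Bcl3 rose from 5.21 to 37.3 FPKM and Tnfaip3, a ubiquitin editor that limits the pathway, from 5.59 to 29.3. The subunit genes Nfkb2 (5.76 to 26.7 FPKM) and Rel (7.99 to 24.0 FPKM) rose with log2 ratios of 2.21 and 1.59, and Rel was under 2-fold after the rescaling. The survival genes Bcl2a1b (43.0 to 380 FPKM) and Bcl2a1d (41.8 to 329 FPKM) are near-identical copies, so the split between them is uncertain. Immediate early genes had 14 of 32 members higher (23 listed) and 1 lower. Egr1 rose from 6.16 to 78.6 FPKM, Zfp36, which encodes the mRNA decay factor tristetraprolin, from 11.2 to 140, and Atf3 from 70.0 to 289. Klf4 was the lower member, from 3.80 to 1.15 FPKM.

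**Figure D3:**
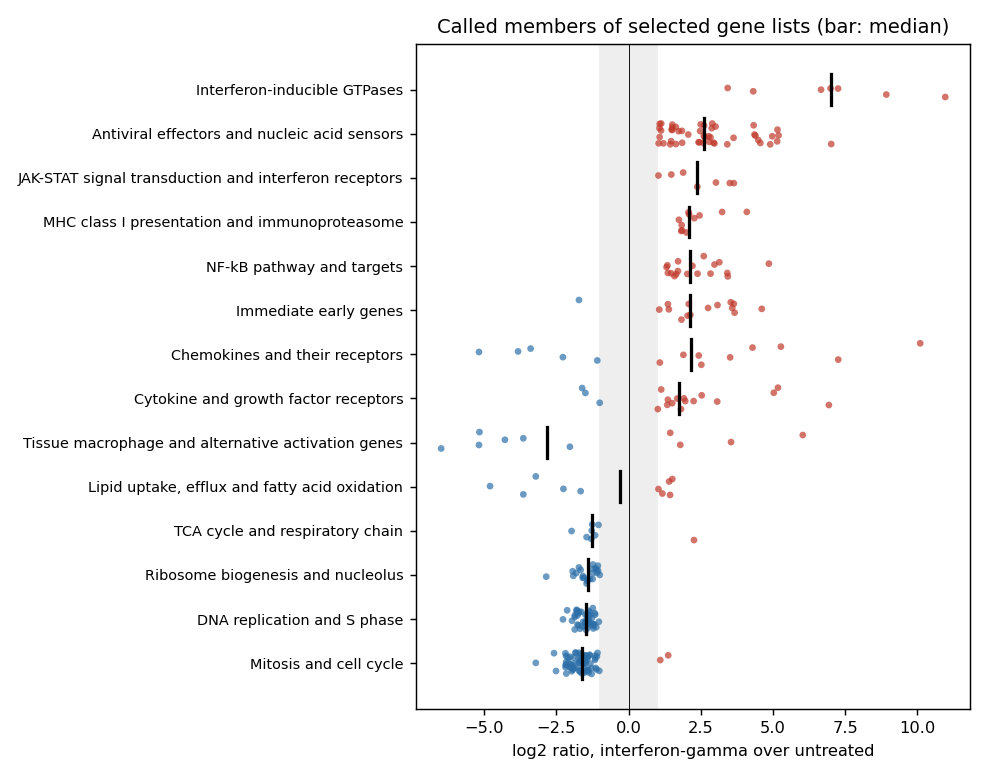
log2 ratio of interferon-gamma over untreated (x axis) for each called member of 14 gene lists (rows), with red points for higher and blue points for lower genes, a black bar at the list's median, and the grey band marking changes under 2-fold, which the authors' deposited table does not list. The GTPases, all but Mx2 of which started below 1 FPKM, have their median at 7.0, the DNA replication list at −1.46 and the cell cycle list at −1.63.

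Genes associated with dendritic cells were higher where called, 9 of 24 (11 listed), with a median log2 ratio of 3.05. Beside Clec9a, Ccl22 and Xcr1, the list's Naaa, a lysosomal amidase, rose from 13.8 to 114 FPKM and Itgax from 2.04 to 24.2. The transcription factor genes Id2 (4.38 to 12 FPKM), Relb (9.4 to 23.4 FPKM) and Zbtb46 (0.183 to 0.577 FPKM) changed less. Id2 and Relb fell below 2-fold after the rescaling. The entry of Zbtb46 did not reach 1 FPKM and did not keep a q of 0.01 or less in the authors' deposited table.

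Genes of tissue macrophages and alternative activation were split, 6 lower and 4 higher of 41 (16 listed), with a median log2 ratio of −2.84. The 4 higher genes are 25% of the listed members, near the 25.7% higher of all listed genes. The falls were those of Igf1, Cx3cr1, Cd33, Trem2, Gas6 (11 to 0.566 FPKM), a ligand of TAM receptors, and Cd300a (25.2 to 6.16 FPKM). Axl, a TAM receptor for GAS6, rose from 0.593 to 38.9 FPKM while its ligand gene fell. Gpr34, a receptor for lysophosphatidylserine, rose from 0.989 to 11.6 FPKM.

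Osteoclast genes, which RAW264.7 cells can switch on when they fuse, were split 6 higher and 5 lower of 24, of which 16 were listed. The fusion genes Ocstamp (0.382 to 42.2 FPKM) and Dcstamp (20.8 to 63.1 FPKM) rose, and Dcstamp was under 2-fold after the rescaling. The bone-resorbing enzyme gene Ctsk went from 3.18 to 0.107 FPKM and Acp5, tartrate-resistant acid phosphatase, from 2.43 to 0.690. Nfatc1, the main transcription factor of the lineage, went from 8.48 to 2.5 FPKM. Clcn7, a chloride transporter of the resorbing membrane, went from 13.9 to 30.5 FPKM, a rise that was under 2-fold after the rescaling.

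Adhesion genes and G protein-coupled receptors changed in both directions. Of 46 adhesion and matrix genes, 18 of them listed, 9 were higher, or 6 after the rescaling, and 4 lower. The integrin gene Itgal rose from 2.48 to 34.1 FPKM. Timp2, an inhibitor of metalloproteinases, fell from 8.28 to 0.777 FPKM. Of 48 receptors and RGS regulators, 26 of them listed, 9 were higher and 7 lower, and 3 were higher after the rescaling. Lower members are 22.2% of the listed adhesion genes and 26.9% of listed receptors and regulators, near the 24.5% of all listed genes. Rgs1, which shortens chemokine receptor signals, rose from 29.9 to 282 FPKM and Rgs16 from 0.797 to 16.6. Lpar5, a lysophosphatidic acid receptor, fell from 20.4 to 2.15 FPKM.

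Genes of cell division were the broadest falling group. In the list of mitosis and cell cycle genes 69 of 90 were lower and 2 higher (82 listed), with a median log2 ratio of −1.63. The 2 higher genes were E2f1 (2.76 to 7.15 FPKM) and E2f3 (1.81 to 3.88 FPKM), both under 2-fold after the rescaling. Ccna2, cyclin A2, fell from 92.8 to 20.8 FPKM, Ccnb2, cyclin B2, from 67.7 to 16, and Cdc20, an activator of the anaphase-promoting complex, from 65.4 to 14.4. Cdca7, a target of E2F and MYC, fell most, from 26.5 to 2.85 FPKM. Aspm, which organises spindle poles, fell from 9.69 to 1.62 FPKM. In the list of DNA replication and S phase genes 46 of 77 were lower and none higher (54 listed), with a median of −1.46. The helicase subunit genes Mcm2 (48.7 to 13.4 FPKM) and Mcm6 (72.8 to 21.9 FPKM) fell, as did Tk1, thymidine kinase, from 59.2 to 13.5 FPKM and Uhrf1, which maintains DNA methylation, from 40.6 to 12.2. The falls were alike in size across both lists, where all falls but those of Cdca7, Aspm and Ckap2 were 2-fold to 5-fold. In bulk RNA, fewer cycling cells and less of these transcripts per cell cannot be told apart.

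Inhibitors of the cycle and p53 targets went up more often than down, 10 against 3 of 33 (21 listed), and 6 were higher after the rescaling. Cdkn1a, which encodes the kinase inhibitor p21, rose from 123 to 487 FPKM. Mdm2, the ubiquitin ligase of p53, rose from 32.8 to 165 FPKM, and Pmaip1, which encodes NOXA, from 16.5 to 221. Cdkn2c, an inhibitor of CDK4 and CDK6, fell from 17.1 to 5.16 FPKM. The other falls of the list were Trp53inp1, from 1.096 to 0.114 FPKM, and Sesn1, from 14.6 to 6.38. Where both groups received doxycycline, interferon-gamma gave 7 higher and 8 lower members of this list. Cell death genes had 10 members higher and 2 lower of 29 (19 listed), with 6 higher after the rescaling. Mlkl, the executor of necroptosis, rose from 6.07 to 38.5 FPKM and Ripk3, its kinase, from 12.9 to 48.9. Xiap, an inhibitor of caspases, fell from 6.76 to 2.58 FPKM. The survival genes Bcl2 (0.279 to 1.73 FPKM) and Bcl2l1 (20.4 to 52.4 FPKM) rose, and Bcl2l1 was under 2-fold after the rescaling. Fadd, an adaptor of death receptors, fell from 5.28 to 2.52 FPKM.

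Of 60 genes of the nucleolus and ribosome assembly, 36 were listed, 23 were lower and none higher, with a median log2 ratio of −1.41. Nolc1, a nucleolar chaperone, fell from 34.8 to 9.09 FPKM, Dkc1, which pseudouridylates ribosomal RNA, from 34.5 to 9.16 and Nhp2, its partner, from 132 to 48.0. Polr1b, a subunit of RNA polymerase I, fell from 12.1 to 4.01 FPKM. Of 95 genes of the mitochondrial ribosome and import machinery, 26 were listed, 7 were lower and none higher, among them Mrpl34 (97.8 to 44.9 FPKM) and Timm9 (12.9 to 3.37 FPKM). The 7 lower genes are 26.9% of the listed members, near the 24.5% lower of all listed genes.

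Metabolic genes showed smaller groups of calls. Of 58 genes of the TCA cycle and respiratory chain, 15 were listed, 7 were lower and 1 higher. Suclg2, a subunit of succinyl-CoA ligase, fell from 19.6 to 7.15 FPKM and Idh3a, a subunit of isocitrate dehydrogenase, from 38.5 to 17.2. Ndufs4, a complex I subunit, had the single rise, from 3.97 to 19.1 FPKM, in an entry that did not keep a q of 0.01 or less. Of 43 genes of glycolysis and the hypoxia response, 17 were listed, 6 were higher and 1 lower, but 2 were higher after the rescaling. With doxycycline in both groups, interferon-gamma gave 7 higher and 6 lower members of this list. Hif1a, the hypoxia-inducible transcription factor, rose from 27.4 to 93.8 FPKM. The glucose transporter gene Slc2a1 went from 119 to 264 FPKM, under 2-fold after the rescaling, and Slc2a3 from 11.8 to 5.55.

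Lipid genes included some of the deepest falls. Of 35 genes of lipid uptake and efflux, 15 were listed, 5 were lower and 5 higher, and none was higher after the rescaling. Abca1, the cholesterol exporter, fell from 4.25 to 0.458 FPKM and Rxra, a nuclear receptor partner, from 6.48 to 1.35, beside Fabp4, Trem2 and Fabp5. Of 40 genes of sterol and fatty acid synthesis, 18 were listed, 5 were lower and 2 higher, or 1 higher after the rescaling. The 5 lower genes are 27.8% of the listed members, near the 24.5% lower of all listed genes. Fasn, fatty acid synthase, fell from 44.5 to 16.5 FPKM, while Acsl1, which activates long-chain fatty acids, rose from 12 to 46.5.

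Enzymes of arginine, polyamine, nucleoside and pterin metabolism went up in 5 cases and down in 5 of 30, or 27.8% each of the 18 listed, near the 25.7% and 24.5% of all listed genes. With Ass1, the next enzyme of arginine resynthesis, Asl, rose from 2.08 to 5.04 FPKM, which was under 2-fold after the rescaling. In the polyamine pathway Sat1, the enzyme that acetylates spermidine, rose from 78.4 to 306 FPKM and Srm, spermidine synthase, fell from 92.0 to 18.7. Of the salvage enzymes, Upp1 and Pnp (7.96 to 43.0 FPKM) rose, and Uck2, uridine-cytidine kinase, fell from 71.2 to 26.5 FPKM. Pts and Qdpr, which make and recycle tetrahydrobiopterin, fell from 15.9 to 3.73 and from 49.3 to 22.3 FPKM.

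Stress genes were split. Of 41 genes of the ATF4 response and serine synthesis, 16 were listed, 6 were higher and 4 lower, with 4 higher after the rescaling. The 4 lower genes are 25% of the listed members, near the 24.5% lower of all listed genes. Ddit3, which encodes CHOP, rose from 9.51 to 40.3 FPKM and Cth, which makes cysteine, from 2.03 to 15.4. The serine pathway genes Phgdh (126 to 44.5 FPKM) and Shmt2 (117 to 41.4 FPKM) fell. Of 36 genes of redox and iron handling, 15 were listed, 7 were higher, or 4 after the rescaling, and 5 were lower. Slc40a1, the iron exporter ferroportin, rose from 10.6 to 47.3 FPKM. Steap3, a ferrireductase, fell from 20.0 to 3.13 FPKM, and Gclc, which starts glutathione synthesis, from 25.3 to 9.35. Of 44 lysosome and autophagy genes, 15 were listed, 7 were higher and 1 lower, and none was higher after the rescaling. The 4 called genes of 31 in the standard proteasome (7 listed) were higher by 2-fold to 3-fold, among them Psma5 (131 to 271 FPKM), and none of them stayed above 2-fold after the rescaling.

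Promoter motifs were counted over all matched genes. The ISRE-type motif was in 3.44% of 32851 RefSeq promoters, in 6.05% of 1439 promoters of higher genes and in 2.61% of 1343 promoters of lower genes. Among genes that rose at least 8-fold it was in 14.9% of 168 promoters. Called members of the antiviral list held it in 24 of 46 promoters, or 52.2%. In the 250 bases before the start alone, 19 of the 46 (41.3%) held it, against 2.98% of all promoters. The 46 promoters belong to 37 genes, since a gene can have several and not all called members were matched. Likewise the promoters of higher genes belong to 1072 genes and those of lower genes to 1047. The GAS motif was in 8.30% of all promoters, 6.78% of those of lower genes, 7.02% of those of higher genes and 7.14% of those of genes that rose at least 8-fold. In the called antiviral genes it was in 5 of 46 promoters, or 10.9%.

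On the falling side 2 other motifs were counted. The CHR motif (TTTGAA), an element known from genes of the G2 and M phases, was in 17.9% of all promoters, 18.5% of those of lower genes and 11.5% of those of higher genes. In the called cell cycle genes it was in 43 of 66 promoters (62 genes), or 65.2%. In the called replication genes it was in 8 of 50 (39 genes), or 16%. In the 250 bases before the start alone, 25 of the 66 cell cycle promoters (37.9%) held it, against 16% of all promoters, so the first share rests in large part on the 50 bases after the start. The E2F motif (TTTCCCGC or TTTGGCGC) was in 1.56% of all promoters, 5.14% of those of lower genes, 22% of those of called replication genes and 10.6% of those of called cell cycle genes. Before the start alone it was in 16% of promoters of called replication genes, against 1.30% of all promoters. Motifs were searched on both strands, matches of different motifs can overlap, and a promoter with several motifs counts under each. These lists were assembled from known interferon and cell cycle genes, so the shares describe the lists and are not independent of them.

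The promoters of Cdc20 and Ccnb2 are shown as examples, with CHR motifs in capitals; they were chosen after their values were seen, as strongly falling cell cycle genes with at least 50 FPKM. They lie at chr4:118437294-118437593 (minus strand, Cdc20) and chr9:70421505-70421804 (minus strand, Ccnb2) in GRCm38.p6, from RefSeq. In Cdc20 the motif begins 18 bases before the start. In Ccnb2 motifs begin 167 bases before the start and 4 bases after it.
Cdc20: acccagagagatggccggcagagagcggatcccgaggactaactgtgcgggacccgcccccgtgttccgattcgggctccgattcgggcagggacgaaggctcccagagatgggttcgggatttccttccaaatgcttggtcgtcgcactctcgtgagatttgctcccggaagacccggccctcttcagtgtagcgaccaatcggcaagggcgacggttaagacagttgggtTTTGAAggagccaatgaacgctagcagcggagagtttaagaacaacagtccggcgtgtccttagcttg
Ccnb2: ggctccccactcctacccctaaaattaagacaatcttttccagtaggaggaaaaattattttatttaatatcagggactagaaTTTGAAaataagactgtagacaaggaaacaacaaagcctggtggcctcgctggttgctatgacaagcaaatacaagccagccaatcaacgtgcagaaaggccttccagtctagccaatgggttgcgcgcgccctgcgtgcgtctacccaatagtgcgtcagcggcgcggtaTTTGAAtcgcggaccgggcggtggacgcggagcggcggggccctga

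**Figure D4:**
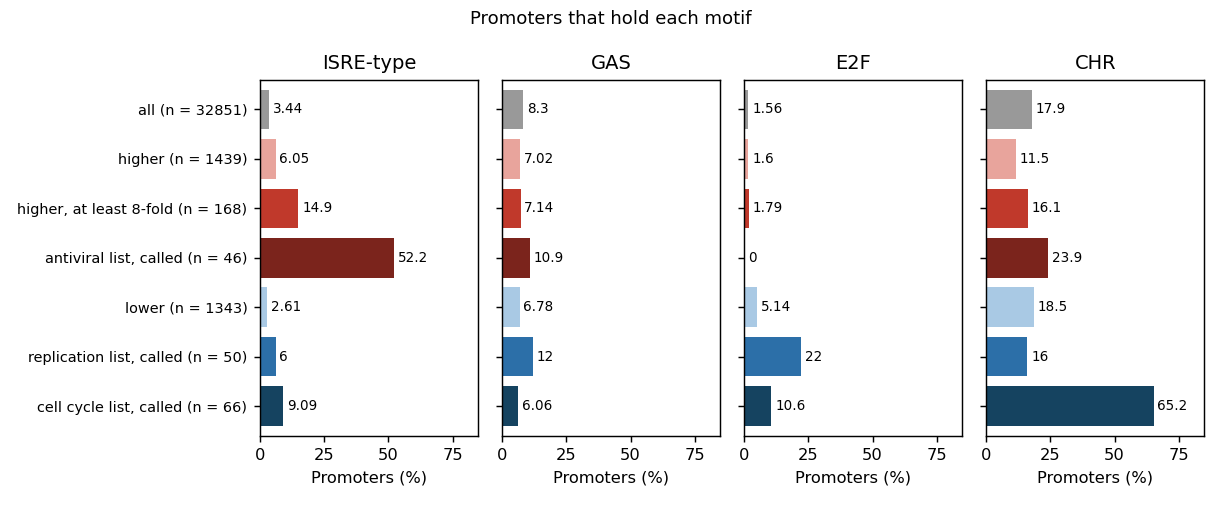
Share of RefSeq promoters (x axis, percent) that hold each of 4 motifs, by set of genes (rows, with the number of promoters). The ISRE-type motif reaches 52.2% in called antiviral genes and the CHR motif 65.2% in called cell cycle genes, against 3.44% and 17.9% of all promoters. Without the 50 bases after the start, the shares are 41.3% of called antiviral promoters and 37.9% of called cell cycle promoters.

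Several changes concerned transcripts of 1 gene. Of 434 genes with more than 1 called entry, 424 had all entries in 1 direction and 10 did not. In Srsf3, a splicing factor gene, the protein-coding transcript fell from 127 to 32.2 FPKM, while a transcript annotated for nonsense-mediated decay rose from 4.10 to 17.2. Lars2, the mitochondrial leucyl-tRNA synthetase, showed the same arrangement, with 25.6 to 12.3 FPKM for the protein-coding and 2.99 to 8.66 for the decay transcript. By annotated transcript type, 58 of 78 called nonsense-mediated decay entries were higher (74.4%), and 66 of 100 retained intron entries (66.0%). Among protein-coding entries 1463 were higher and 1366 lower, or 51.7% higher. Transcript levels of 1 gene are estimates that share reads, so their split is less certain than a gene's sum.

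Neighbouring genes were called in the same direction in 294 of 419 pairs that lie next to each other in RefSeq's order of protein-coding genes, 172 pairs higher and 122 lower. That is 70.2% of the pairs, where 51.3% of all called genes were higher. Pairs within families of close copies are counted in it, and no share was computed for genes that are not neighbours. The longest runs of higher genes were 6 genes each: H2-Q1, H2-Q2, H2-Q4, H2-Q6, H2-Q7 and H2-Q10 in the class I region, and Ifi207, Ifi204, Mndal, Ifi211, Ifi203 and Ifi202b of the p200 family. Both are families of close copies that can share reads. Runs of unlike genes existed too, such as Psme2, Rnf31 and Irf9, and Parp14, Dtx3l and Parp9. Runs of lower genes were shorter, at most 4 genes (Dtl, Ints7, Lpgat1 and Nek2).

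The same stimulus was given to construct cells with doxycycline at 100 ng/mL, where CITED1 was induced, and the comparison with doxycycline alone shares no group with the one described here. The authors' deposited table lists 1837 genes as higher there and 1854 as lower, which are 33.7% and 34% of the 5455 genes listed. In all, 1156 genes were higher in both comparisons, which is 82.3% of the genes higher without doxycycline and 62.9% of those higher with it. A further 1082 genes were lower in both, or 81.1% and 58.4%. In 6 genes the directions were opposite, and in 5 of them the 2 comparisons listed different transcripts. The exception was Acsf2, an acyl-CoA synthetase, which went from 0.601 to 1.24 FPKM without doxycycline and from 1.15 to 0.416 with it.

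The same table entry stood for 2083 genes in both comparisons, and 2082 of these moved the same way. The log2 ratios of the 2 comparisons had a Pearson r of 0.91 across the 1066 genes higher without doxycycline and 0.76 across the 1017 lower ones. These are correlations across genes, which are not independent replicates. The ratio with doxycycline was the larger one in 857 of the 1066 higher genes (80.4%) and in 767 of the 1017 lower genes (75.4%). Median log2 ratios were 1.60 without and 2.00 with doxycycline for higher genes, and −1.48 and −1.77 for lower genes. The difference between the comparisons was not tested, since the table gives no error per gene.

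**Figure D5:**
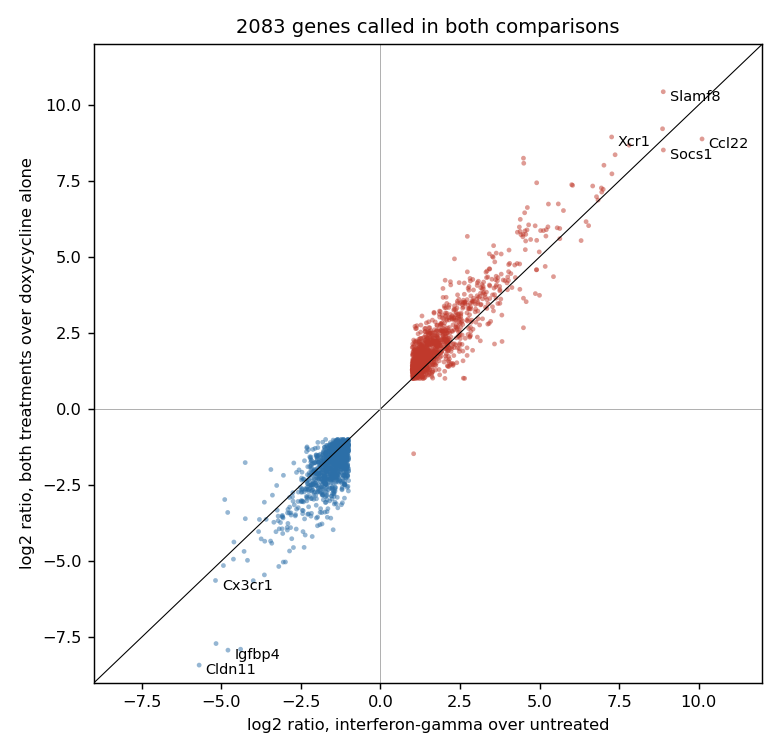
log2 ratio of each of 2083 genes called in both comparisons, without doxycycline (x axis, interferon-gamma over untreated) and with doxycycline (y axis, both treatments over doxycycline alone), with the diagonal marking equal ratios; red points are higher and blue points lower without doxycycline. Most points lie farther from 0 on the y axis than on the x axis, as in 80.4% of the higher genes.

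Single genes ranged from like to unlike levels. Cd274 went from 1.78 to 203 FPKM without doxycycline and from 2.00 to 233 with it, and Ccna2 from 92.8 to 20.8 and from 87.1 to 18.3. Isg15 started at 17.1 and 19.0 FPKM but reached 358 without doxycycline and 1429 with it. Ifit3 reached 54.4 and 296 FPKM from starts of 1.81 and 1.71. Among falling genes, Cldn11 ended at 1.47 FPKM without doxycycline and at 0.127 with it, and S1pr1 at 1.07 and 0.0889. Trem2 ended at 15.2 and 4.57 FPKM from 190 and 200. Mt2 had the larger ratio without doxycycline, reaching 2160 FPKM there and 1647 with it. Genes such as Gbp5, Clec9a, Upp1 and Batf2 have no entry in the comparison with doxycycline and so cannot be set beside it.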

How the data were processed

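Poly(A)-selected, directional libraries were sequenced from 18 samples in 6 groups of 3, and 2 of these groups form the comparison described. Cuffdiff 2.2.1, STAR 2.5.3a, edgeR, featureCounts and FastQC 0.11.5 appear in the submitters' processing notes without the role of each, and the authors' build and annotation are not stated in what was used here. Per the file headers, each entry of the authors' deposited table names 2 groups and gives a fold change (a linear ratio), a direction, 1 total FPKM for the deposited pair and a deposited q-value. Of 112230 entries, 77406 name a group outside the 18 samples and were not used, which left 34824. All entries used had a fold of at least 2 and a q of 0.05 or less.

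The level of the lower group was computed as total / (1 + fold), and multiplied by the fold for the higher group. FPKM therefore rest on reading the total as a sum, and ratios do not. Levels rebuilt from several comparisons differed by at most 0.713% where they reached 1 FPKM, and lower levels were not checked in this way. Gene counts leave out 78 unnamed entries and 13 that name several genes, and a gene's printed value is that of its called entry with the highest total. With no value per sample, the design's tests on samples could not be run and no p-value was computed. Depth per sample is unknown.

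Named genes were by deposited fold the 15 strongest rises and 15 strongest falls, the 10 largest gains and losses in FPKM, genes with entries in both directions, and up to 8 called members of each list by size of log2 ratio. The first 4 choices were limited to genes with an assigned symbol, and those by size to genes that reached 1 FPKM in either group. The members and lists were chosen with earlier results of these data known. Some genes of the lists are not reported here. A few further list members were named after their values were seen. Transcript types came from GENCODE M21, which holds 3212 of 3242 transcript identifiers. Promoters and gene order came from RefSeq for GRCm38.p6, matched by symbol. The alternatives were a q of 0.01 or less, at least 1 FPKM, a pseudocount of 1 FPKM, rescaling to a median log2 ratio of 0, and other ways of counting entries. Rebuilding and counting were tested on simulated data. Scripts ran in Python 3.11.15 with pandas 2.3.3 and numpy 2.4.6.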

Additional observations from a re-analysis of the deposited data

How the results depend on the processing

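The share of called genes that were higher was 51.3%. It was 54.8% with a pseudocount of 1 FPKM, 53.2% when entries were counted, and 33.7% after rescaling to a median log2 ratio of 0, where 682 genes were higher against 1404. A q of 0.01 or less left 1245 higher and 1193 lower genes, and a minimum of 1 FPKM left 1360 and 1277. The cause of each change was not tested, beyond the smaller number of genes that pass a stricter limit. Of 275 named genes, 37 fell below 2-fold after the rescaling, and 15 had a q above 0.01. These settings could not reverse a call, since the shift of 0.65 is smaller than any listed change. Without the 50 bases after the start, the CHR share of called cell cycle promoters was 37.9% against 65.2%. In the same shorter window the ISRE-type share of called antiviral promoters was 41.3% against 52.2%. No paired analysis was possible because the authors' deposited table holds no values per sample, and leaving out each replicate could not be run for the same reason. Depth and replicate spread are unknown, so the precision of low levels, such as the untreated 0.0437 FPKM of Clec9a, cannot be given.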

Other observations

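Other values stand outside the lists. Ighm, the constant region gene of immunoglobulin M, went from 0.975 to 10.1 FPKM with interferon-gamma and from 0.891 to 6.17 FPKM with doxycycline as well. Of genes grouped by the start of their symbol after the values were seen, 11 of 12 called Rab genes, which encode small GTPases of membrane traffic, were higher, against 51.3% of all called genes. Their median log2 ratio of 1.40 falls under 2-fold after rescaling to a median log2 ratio of 0. Among called Wdr genes, which encode WD-repeat proteins, 11 of 13 were lower. Called solute carrier genes (Slc) were 34 higher and 21 lower, and called zinc finger genes (Zfp) 16 higher and 24 lower. Called lincRNA transcripts numbered 21 higher and 30 lower.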
